A study of Mus musculus with 6 samples.

Results

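The insulin-like growth factor (IGF) axis was followed through 10 genes in C2C12 cells, a mouse line of muscle precursor cells (myoblasts). They are the ligands Igf1 and Igf2, the receptors Igf1r, Insr and Igf2r, the receptor substrates Irs1 and Irs2, and the binding proteins Igfbp2, Igfbp4 and Igfbp5. Every probe set that the platform annotation ties to exactly 1 of these genes was taken, 27 in all of 34945 probe sets with a single gene, and the 10 genes are of 18193 named on the array. A further probe set carries Igf2r together with the antisense transcript Airn and was left out by that rule. All cells carried a tetracycline-inducible integrin alpha7 construct and were held undifferentiated in medium with 20% serum for 36 h. The noninduced group (3 arrays) received no tetracycline and the induced group (3 arrays) received 1 µg/ml. The comparison asks how raising integrin alpha7, a laminin receptor subunit, changes transcription in myoblasts. No group had tetracycline without the construct, so the drug and the transgene cannot be told apart, and the labels do not say whether the line is 1 clone.

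IGF1 and IGF2 are secreted hormones that act mainly through IGF1R, a receptor tyrosine kinase closely related to the insulin receptor. The activated receptor phosphorylates IRS1 and IRS2, which recruit PI3-kinase and so switch on AKT, and AKT in turn raises mTORC1 activity and keeps FOXO transcription factors out of the nucleus. IGF2R has no kinase and carries IGF2 to the lysosome, and the binding proteins hold the ligands outside the cell. In muscle precursors this axis is known for driving both growth and differentiation, and Igf2 and Igfbp5 are known to be induced when C2C12 cells differentiate.

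The transcript of the construct's own gene was not higher. Itga7 gave a signal of 811, 778 and 786 on noninduced arrays 1 to 3 and 675, 727 and 676 on the arrays labelled induced, a log2 fold change of -0.19 (limma adjusted p = 0.178). The labels do not say whether the construct's transcript holds the sequence this probe set binds. Its values go against the label, so the treated arrays are called the arrays labelled induced from here on. Median signal over all probe sets ran from 25.0 to 27.7 on the noninduced arrays and from 22.9 to 24.9 on the arrays labelled induced. Fluidics runs were inferred from hybridisation times, a gap of more than 60 minutes starting a new run. So defined, noninduced replicates 1 to 3 and induced replicate 1 shared a fluidics run, while induced replicates 2 and 3 were in a second one. Any value within the first run has induced replicate 1 as its lone treated array.

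Markers of myoblasts were measured above the filter, and so were some markers of other cell types. Of 6 myoblast markers 5 lay above the signal filter, among them Myod1, Myf5 and Des, and Msc lay below it. The summed signal of all 6 was 5863 to 5990.4 on noninduced arrays and 5545 to 5821 on the arrays labelled induced, which do not overlap. The sum of 10 differentiated muscle markers was 505 to 648 and 538 to 601. Of these 10, Myog, Acta1, Actc1, Mylpf and Tnnc1 lay above the filter and Myh3, Myh8, Ckm, Tnnt3 and Tnni1 below it. Of 5 adipocyte markers, Pparg, Cebpa and Lipe lay above and Adipoq and Fabp4 below, with sums of 267 to 292 and 227 to 271. Of 4 osteoblast markers, Sp7 and Alpl lay above and Ibsp and Dmp1 below, with sums of 90.4 to 140.0 and 69.1 to 87.3. Of 6 endothelial markers, Kdr lay above and Pecam1, Cdh5, Tek, Tie1 and Emcn below, with sums of 70.5 to 84.1 and 55.7 to 69.5. Of 6 leukocyte markers, Cd14, Csf1r and Cd68 lay above and Ptprc, Itgam and Tyrobp below, with sums of 284 to 326 and 251 to 295. The osteoblast and endothelial sums do not overlap between the groups either, both being lower on the arrays labelled induced, while the differentiated muscle, adipocyte and leukocyte sums overlap. Among all tested single probe sets 20.3% did not overlap, and no share was computed for sums. The osteoblast and endothelial sums include markers below the filter, and the median signal over all probe sets was also lower on the arrays labelled induced. Whether these sums reflect cell type content was not tested. The part of these differences in the values below was not tested either.

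None of the IGF axis genes passed the test between the groups. Of the 27 probe sets, 14 had an average log2 value in the upper part of the array, past its median at a signal of about 22.6, and were tested; they stand for 7 genes, and Igf1, Igf2 and Irs2 had no tested probe set. At an adjusted p of 0.05 in limma, 0 of the 14 were called, against 0.200% of all 22518 tested probe sets (0.120% higher with induction, 0.0799% lower). The smallest adjusted p of a member in limma was 0.271, for Irs1. At an unadjusted p under 0.05 there was 1 call among the 14, again Irs1, lower, against 14.7% of all tested probe sets (7.41% higher, 7.27% lower). The groups did not overlap in 2 of the 14, 1 higher and 1 lower, against 20.3% of all tested probe sets (9.64% higher, 10.6% lower), so neither share of the members exceeded the background.

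A log2 fold change is given throughout as induced minus noninduced of log2(signal + 16), which understates the change of dim probe sets. The estimates ran from -0.32 to 0.20, 10 above 0 and 4 below, with a median of 0.08 against -0.01 over all tested probe sets. On that scale the 95% interval of each of the 14 probe sets lay within a 2-fold change of signal + 16 in either direction, and that of 11 lay within 1.5-fold. The outermost limits were 1.52 and 0.572 as ratios of signal + 16, both for probe sets of Igfbp4. They do not bound the change in signal of the dim probe sets: with a pseudocount of 1 the estimate for Igf1r 1446303_at went from -0.32 to -0.45, that for Igfbp4 1423757_x_at from -0.24 to -0.35 and that for Igfbp4 1421992_a_at from 0.09 to 0.19. Signals of different probe sets are not compared with each other, because each binds its target with its own strength.

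**Figure D1:**
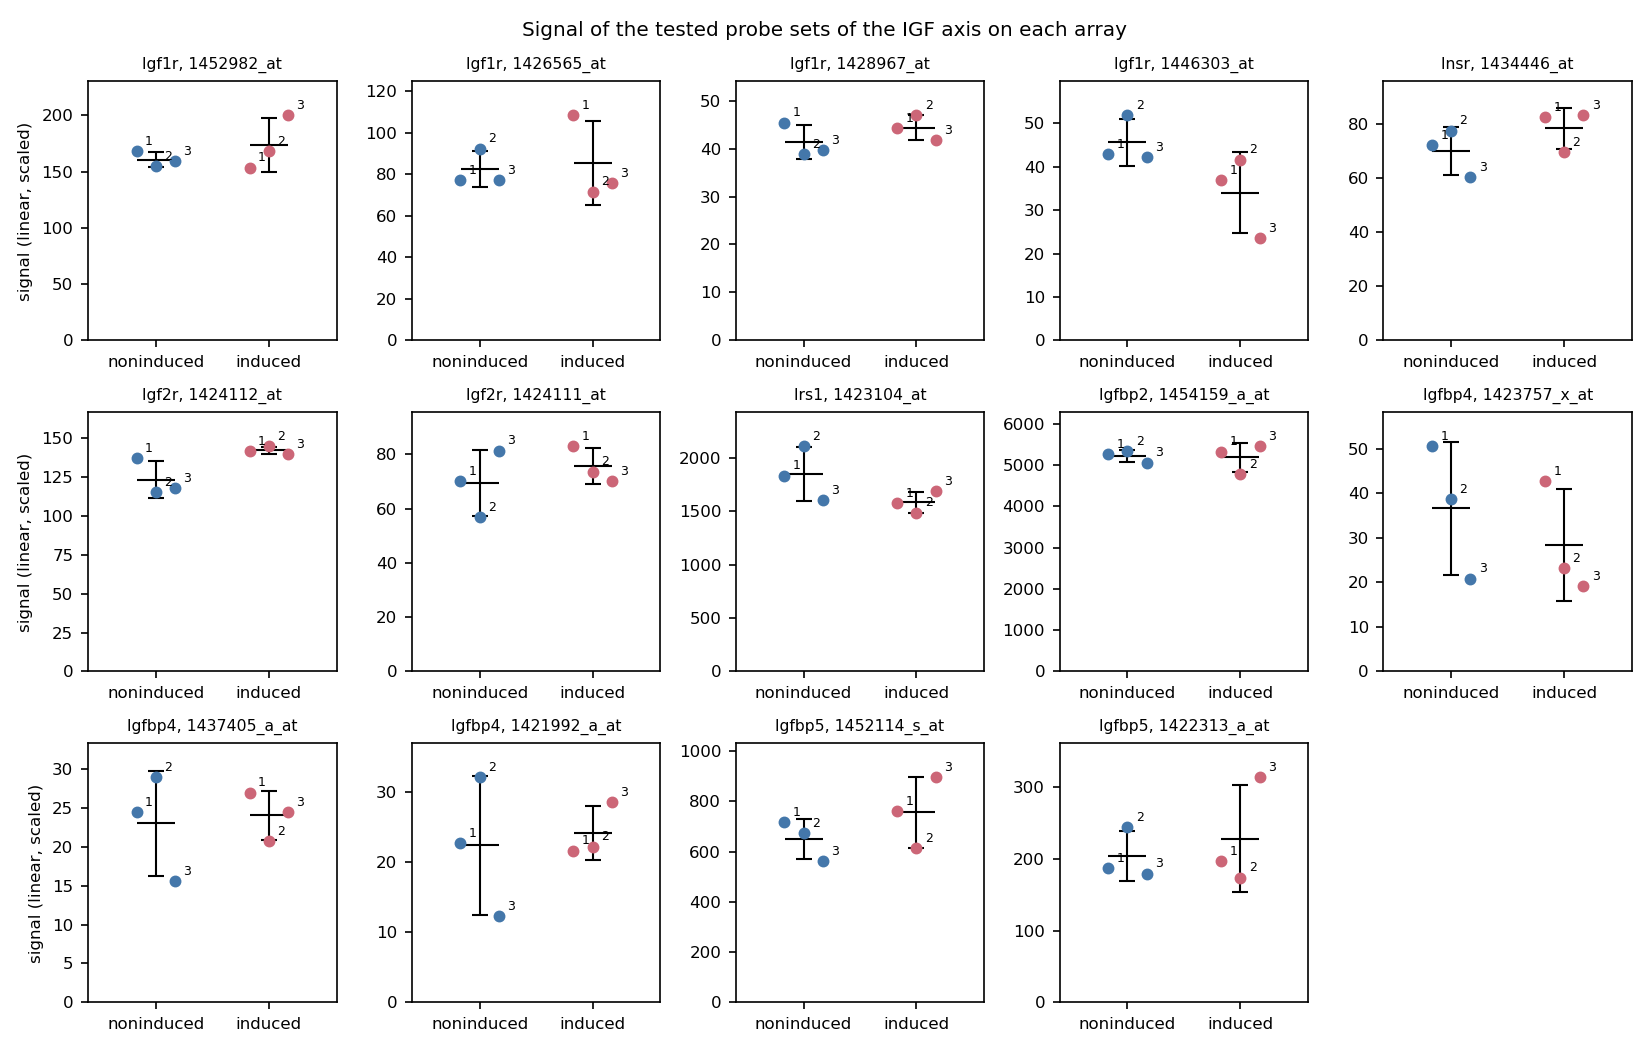
Linear, scaled signal (vertical axes, each from 0) of the 14 tested IGF axis probe sets on each noninduced and each induced array, numbered by replicate; bars are means with the SD of 3 arrays. The groups stand apart only for Igf1r 1446303_at, lower on the arrays labelled induced, and Igf2r 1424112_at, higher there.

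Among the ligands, Igf1 gave values near the floor of the array. IGF1 is the main circulating ligand and is also made by muscle itself. Its 4 probe sets gave signals between 0.495 and 23.3 over all 6 arrays, all of them below the filter by their means, and no pair of groups stood apart. The brightest of them, 1437401_at, gave 21.3, 16.2 and 23.3 on noninduced arrays 1 to 3 and 16.96, 12.8 and 0.495 on the arrays labelled induced. Induced replicate 3 is far below the rest, and induced replicate 1 lies inside the noninduced range.

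Igf2, the ligand of fetal growth and of the autocrine loop in differentiating myoblasts, was also below the filter. Its brighter probe set, 1448152_at, gave 8.16, 21.9 and 7.71 on the noninduced arrays and 31.2, 21.4 and 23.0 on the arrays labelled induced. All 3 arrays labelled induced lay above noninduced replicates 1 and 3, but noninduced replicate 2 lay between induced replicates 2 and 3. In the fit with no filter its log2 fold change was 0.56 (SE 0.256, 95% interval -0.02 to 1.13, limma adjusted p = 0.508; exact two-sided permutation p = 0.2). The other Igf2 probe set, made from the same source sequence by the platform annotation, gave 6.93, 0.797 and 3.61 against 8.54, 0.755 and 9.92, with a log2 fold change of 0.17 in that fit. Both probe sets are thus higher on average on the arrays labelled induced with groups that overlap.

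**Figure D2:**
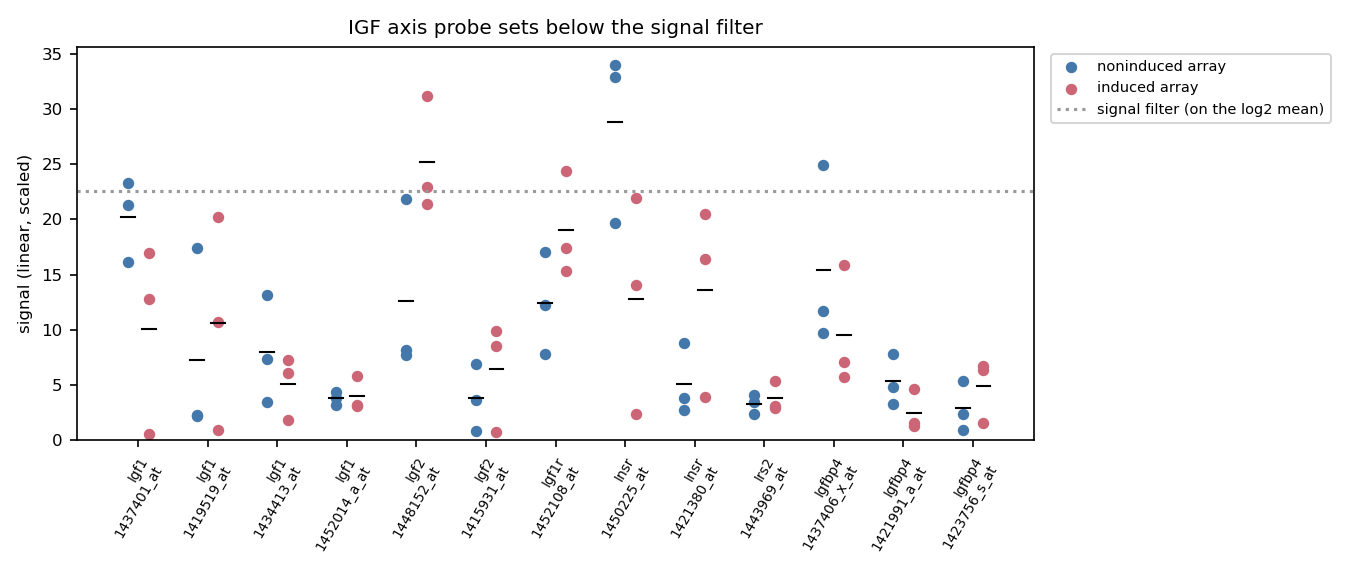
Linear signal of the 13 IGF axis probe sets that fell below the filter, on noninduced and induced arrays (1 point an array, short lines are means of 3, dotted line the filter of 22.6, which was applied to the mean of log2(signal + 16) and not to single arrays). In every one of them the points of both groups overlap; Igf2 1448152_at and Insr 1450225_at show the widest spread.

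Igf1r, the kinase receptor for both ligands, had 5 probe sets, of which 4 were tested. The brightest, 1452982_at, gave 168, 155 and 159 on noninduced arrays 1 to 3 and 153, 168 and 200.02 on the arrays labelled induced. Induced replicate 3 is the highest and the other two treated arrays lie in or below the noninduced range. Its log2 fold change was 0.10 (95% interval -0.14 to 0.33, limma adjusted p = 0.718), and it was -0.06 within the first fluidics run. The probe set 1428967_at, made from the same source sequence, gave 45.4, 38.9 and 39.7 against 44.2, 46.9 and 41.8, a log2 fold change of 0.07. The probe set 1426565_at gave 77.3, 92.3 and 77.3 against 108, 71.6 and 75.8. Induced replicate 1 is the highest array. The difference of 0.03 was -0.13 without it and 0.34 within the first run.

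The last tested Igf1r probe set went the other way. It is 1446303_at, with signals of 43.0, 51.9 and 42.2 on the noninduced arrays and 36.9, 41.7 and 23.6 on the arrays labelled induced. The groups do not overlap, although induced replicate 2 is just below the lowest noninduced array. The fit gave a log2 fold change of -0.32 (SE 0.187, 95% interval -0.72 to 0.09, limma adjusted p = 0.462), the largest in size of the 14. It was -0.22 within the first fluidics run and -0.16 without induced replicate 3. Its sign differs from those of the other 3 tested Igf1r probe sets, and no difference between probe sets was tested. The remaining, dim probe set, 1452108_at, gave 7.78, 12.3 and 17.1 against 17.5, 24.4 and 15.4.

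Insr, the insulin receptor, which also forms hybrid receptors with IGF1R, had 1 tested probe set of 3. It gave 72.4, 77.8 and 60.5 on the noninduced arrays and 82.6, 69.9 and 83.4 on the arrays labelled induced, and induced replicate 2 lies inside the noninduced range. This gave a log2 fold change of 0.14 (95% interval -0.16 to 0.43, limma adjusted p = 0.688). The 2 dim Insr probe sets share a source sequence and moved in opposite directions. Of these, 1450225_at gave 34.0, 32.9 and 19.7 against 2.32, 14.1 and 21.9 (log2 fold change -0.69 with no filter, limma adjusted p = 0.487), and 1421380_at gave 8.79, 3.76 and 2.74 against 20.5, 16.4 and 3.88 (0.45, limma adjusted p = 0.589). Both pairs of groups overlap, and the average over the 3 probe sets was -0.03.

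Igf2r, the receptor that clears IGF2 and sorts lysosomal enzymes, gave the single non-overlapping difference upwards. Its probe set 1424112_at had signals of 137, 115 and 118 on the noninduced arrays and 142, 145 and 139.8 on the arrays labelled induced. The treated arrays lie close together above the noninduced ones, and noninduced replicate 1 is only just below them. Here the fit gave 0.18 on the log2 scale (SE 0.103, 95% interval -0.04 to 0.41, limma adjusted p = 0.432; exact two-sided permutation p = 0.1, the smallest that 3 against 3 arrays allow). The value stayed at 0.18 in the first run and was 0.28 with median centring. Median centring raised the median over all tested probe sets from -0.01 to 0.08. The second probe set, 1424111_at, gave 70.1, 56.9 and 81.4 against 83.0, 73.6 and 70.2. Its groups overlap and its log2 fold change of 0.11 became -0.0022 without noninduced replicate 2.

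Irs1, the adaptor that couples the receptors to PI3-kinase, came nearest to the threshold. Its single probe set, 1423104_at, gave 1836, 2110.45 and 1609 on noninduced arrays 1 to 3 and 1578, 1489 and 1690 on the arrays labelled induced. The means were 1852 ± 251 and 1585 ± 100.5 (SD, n = 3 each). Noninduced replicates 1 and 2 lie above all treated arrays, while noninduced replicate 3 lies between induced replicates 1 and 3. The resulting log2 fold change was -0.21 (SE 0.0842, 95% interval -0.40 to -0.03; unadjusted p = 0.0253 and adjusted p = 0.271 in limma; exact two-sided permutation p = 0.2). Among tested probe sets 7.27% were lower at that unadjusted threshold. The estimate was -0.22 within the first run, -0.12 after median centring and between -0.31 and -0.12 when 1 array was left out. It was negative in all 17 alternatives and passed the adjusted threshold in none of them, with a lowest adjusted p of 0.185 without noninduced replicate 3 in limma. These are not 17 separate checks of the sign. Another filter, another variance moderation and the replicate block leave the estimate unchanged by construction. The run block and the first run alone give the same estimate.

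Irs2, the other main substrate and a known FOXO target, had a single probe set with signals of 2.38, 3.41 and 4.04 against 3.10, 5.39 and 2.88. All values are far below the filter, so this array gives no usable comparison for Irs2.

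**Figure D3:**
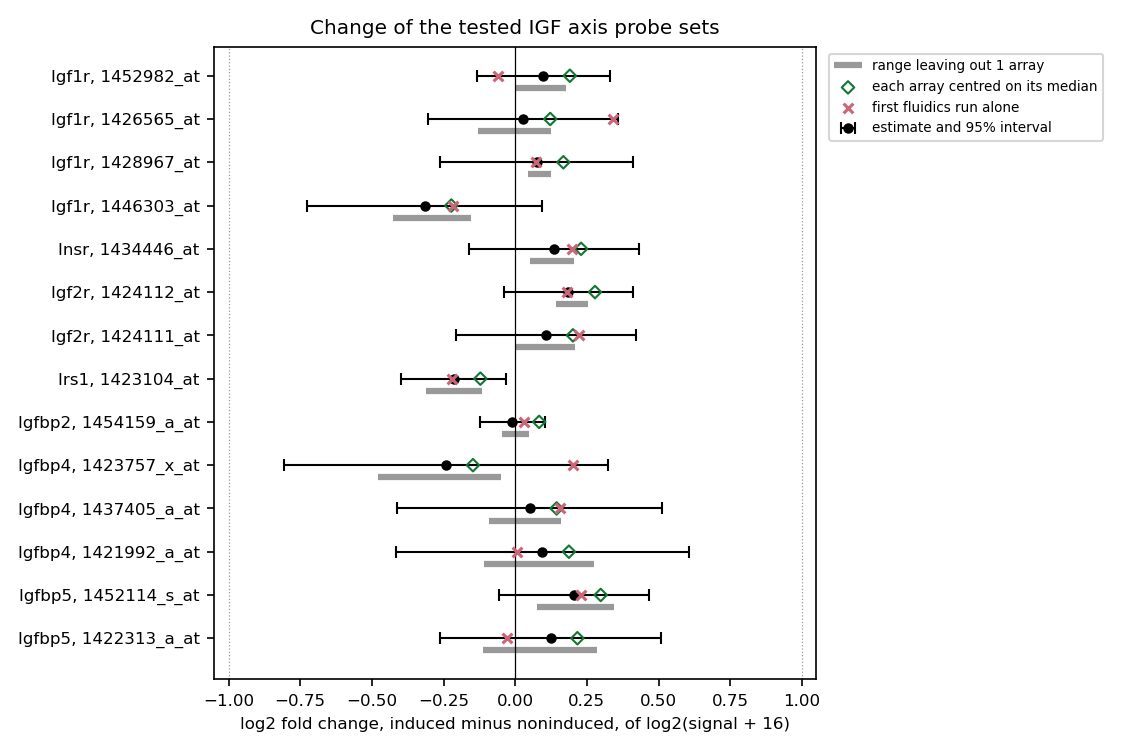
Log2 fold change (horizontal axis, induced minus noninduced) of the 14 tested probe sets with its 95% interval, the range when 1 array is left out (grey), the value with median centring (diamond) and the value within the first fluidics run (cross); dotted lines mark a 2-fold change of signal + 16. The Irs1 interval lies below 0, the Igfbp2 interval is the narrowest, and every interval stays inside the dotted lines.

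Igfbp2, a binding protein for both ligands with a preference for IGF2, gave the most precise value of the group. Its signals were 5257, 5335 and 5058 on noninduced arrays 1 to 3 and 5325, 4784 and 5453 on the arrays labelled induced, or 5217 ± 143 and 5187 ± 355 (SD, n = 3 each). Induced replicates 2 and 3 enclose all noninduced values. Its log2 fold change was -0.01 (95% interval -0.12 to 0.10, limma adjusted p = 0.952). Under the scaling as deposited this interval spans 0.919 to 1.07 of the noninduced level. The span depends on that scaling, and the sign is not settled. The estimate was 0.08 with median centring and 0.03 within the first run.

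Over the 6 arrays, the log2 values of Igfbp2 ran most closely with those of Appbp2 (Pearson r = 0.997), Cbx2 (0.992) and Ptgfrn (0.9895). With only 6 arrays, 45 of 19824 compared probe sets exceeded 0.95, and all share the same arrays and scaling, so this is a description only.

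Igfbp5, a binding protein of muscle and bone that is held in the extracellular matrix, had 2 probe sets, both tested. The brighter, 1452114_s_at, gave 718, 672 and 561 on the noninduced arrays and 761, 614 and 896 on the arrays labelled induced. Induced replicates 1 and 3 lie above all noninduced arrays, and induced replicate 2 lies among them. The difference was 0.20 on the log2 scale (SE 0.120, 95% interval -0.06 to 0.47, limma adjusted p = 0.458). It was 0.23 within the first run and 0.08 without induced replicate 3. The other probe set, 1422313_a_at, gave 188, 244 and 179.6 against 197, 174 and 314. Its log2 fold change of 0.12 became -0.11 without induced replicate 3 and -0.03 within the first run. Induced replicate 3 is the highest array on both probe sets.

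Igfbp4, a binding protein that is cleaved by the protease PAPP-A, was dim on all 6 of its probe sets. The 3 tested ones passed the filter narrowly. The brightest, 1423757_x_at, gave 50.6, 38.6 and 20.9 against 42.8, 23.2 and 19.2, a log2 fold change of -0.24 (95% interval -0.81 to 0.32, limma adjusted p = 0.712) that was 0.20 within the first run. The other 2 tested probe sets gave 0.05 and 0.09. Noninduced replicate 3 is the lowest of the noninduced arrays on all 3, and without it both positive values turned negative (-0.09 and -0.11); the first was -0.0011 without induced replicate 1. The 3 dim probe sets lay between 0.872 and 25.0. The 6 probe sets of Igfbp4 come from 3 source sequences, 2 from each, and are not independent measurements.

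The suffix of a probe set name says how specific it is. Probe sets ending in _s_at or _x_at can also bind transcripts of other genes. Among the members these are the brighter one of Igfbp5 and 3 of Igfbp4. Those ending in _a_at bind several transcripts of the same gene.

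The genes around the members were taken from lists of the IGF system, with 1 probe set a gene, its brightest. The lists were chosen with earlier results of these data known. Their counts beside the shares of all tested genes are therefore descriptions and no test of a list. Over all 10757 tested genes the median log2 fold change was -0.01, 47.8% were positive, and 0.195% rose and 0.112% fell past the adjusted threshold in limma. Of 21 other IGF system genes with a probe set here, such as further binding proteins, proteases and receptor regulators, 10 were tested. None rose or fell past the threshold in limma, 1 had an unadjusted p under 0.05 (against 7.94% of all tested genes higher), 5 were positive and the median was -0.02 (0.07 after median centring, against 0.08 over all tested probe sets). Igfbp6, which prefers IGF2, was at -0.13 with signals of 1518 ± 50.8 and 1392 ± 180.4 (SD, n = 3 each), and Htra1, a protease that cleaves binding proteins, was at 0.00 with 1412 ± 38.1 and 1416 ± 46.2. Stc2, an inhibitor of PAPP-A, was at -0.15 and its other probe sets lay at 0.04 to 0.17. Lrp1, an endocytic receptor that binds IGFBP3, was at 0.12 with one probe set and -0.22 with the other.

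All 21 receptor adaptors and phosphatases were tested and none passed the adjusted threshold in limma. The median was -0.05 (0.05 after median centring, against 0.08 over all tested probe sets). Of these genes 8 were positive and 13 negative, and 1 was lower at an unadjusted p under 0.05 (against 7.96% of all tested genes). By the brightest probe set of each gene, the adaptors Gab1, Gab2 and Crkl had the largest changes, at 0.17, -0.20 and -0.16. Their other tested probe sets lay at 0.09 to 0.10, -0.40 to 0.02 and -0.12 to -0.06. Crk was at 0.05 and the phosphatase gene Ptpn11 at -0.03, both measured by bright probe sets. Other tested probe sets lay at -0.09 to 0.03 for Crk and at 0.01 to 0.34 for Ptpn11.

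In the PI3K, AKT and mTOR branch 1 of 19 tested genes rose past the adjusted threshold and none fell, against 0.195% and 0.112% of all tested genes. At an unadjusted p under 0.05 there were 4 higher and 1 lower of the 19, against 7.94% and 7.96%. Because the list was chosen with earlier results known, these counts are no test of the branch. The gene past the adjusted threshold was Eif4ebp1, which encodes the translation repressor 4E-BP1, a substrate of mTORC1. Its probe set 1434976_x_at gave 1746, 1551 and 1734 on the noninduced arrays and 2201, 2118 and 2114 on the arrays labelled induced. Every treated array lies above every noninduced one, and the difference was 0.35 on the log2 scale (SE 0.055, 95% interval 0.23 to 0.47, limma adjusted p = 0.0227). A second probe set, 1417562_at, gave 1281, 1249.7 and 1288 against 1502, 1514 and 1436 (0.22, limma adjusted p = 0.0929). The dimmest, 1417563_at, gave 0.15 with overlapping groups. By its _x_at suffix the called probe set can also bind transcripts of other genes. Neither of the others, which lack that suffix, passed in the main fit. The call was lost in limma in 4 of the 6 fits without 1 array and within the first run, while the estimate stayed between 0.30 and 0.39. Omitting noninduced replicate 1 left an adjusted p of 0.0346 and omitting induced replicate 3 one of 0.0463, but it was 0.0747 without noninduced replicate 2, 0.0813 without noninduced replicate 3, 0.125 without induced replicate 1, 0.0824 without induced replicate 2 and 0.262 within the first run.

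The other genes of that branch lay on both sides of 0, and 10 of 19 in the list were positive. The list median was 0.00 (0.09 after median centring, against 0.08 over all tested probe sets). Ddit4, an mTORC1 inhibitor also known as REDD1, gave 976, 957 and 874 on the noninduced arrays and 1144, 1059 and 1262 on the arrays labelled induced. The groups do not overlap, and its log2 fold change of 0.30 had a limma adjusted p of 0.105. Deptor, another mTOR inhibitor, was at 0.25 (limma adjusted p = 0.150), and Rheb, the GTPase that activates mTORC1, at 0.15. Ddit4, Deptor and Rheb, like Akt2, did not pass the adjusted threshold.

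Of the 16 FOXO factors and known FOXO targets 14 were tested, and none passed the adjusted threshold in limma. At an unadjusted p under 0.05 there were 4 higher and 1 lower, against 7.94% and 7.96% of all tested genes. The list median was 0.14 and 10 of 14 genes were positive. After median centring the list median was 0.23, against 0.08 over all tested probe sets. The cell cycle inhibitor gene Cdkn1b gave 406, 337 and 329 against 417, 413 and 539 (0.33, limma adjusted p = 0.201), and its other tested probe set gave 0.45. Bnip3, a mitophagy receptor that hypoxia also induces, gave 586, 538 and 508 against 699, 608 and 732 (0.31, limma adjusted p = 0.121). Foxo1 itself gave 120.1, 124 and 108 against 195, 124.9 and 131. Its groups are only just apart, its log2 fold change was 0.30 (limma adjusted p = 0.374), and its other 2 tested probe sets gave -0.03 and -0.04. Cited2 and Map1lc3b, both measured by bright probe sets, were at 0.10 and -0.08. The gene lower at the unadjusted threshold was Gabarapl1 (-0.17, limma adjusted p = 0.332). Its groups overlap, and its other tested probe set gave -0.0055. Trim63 and Klf15 lay below the filter. Trim63 gave 13.6, 7.05 and 17.9 against 1.07, 5.47 and 1.52. Its groups do not overlap (-0.62 with no filter, limma adjusted p = 0.335). Klf15 was at 0.02 in that fit with overlapping groups.

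**Figure D4:**
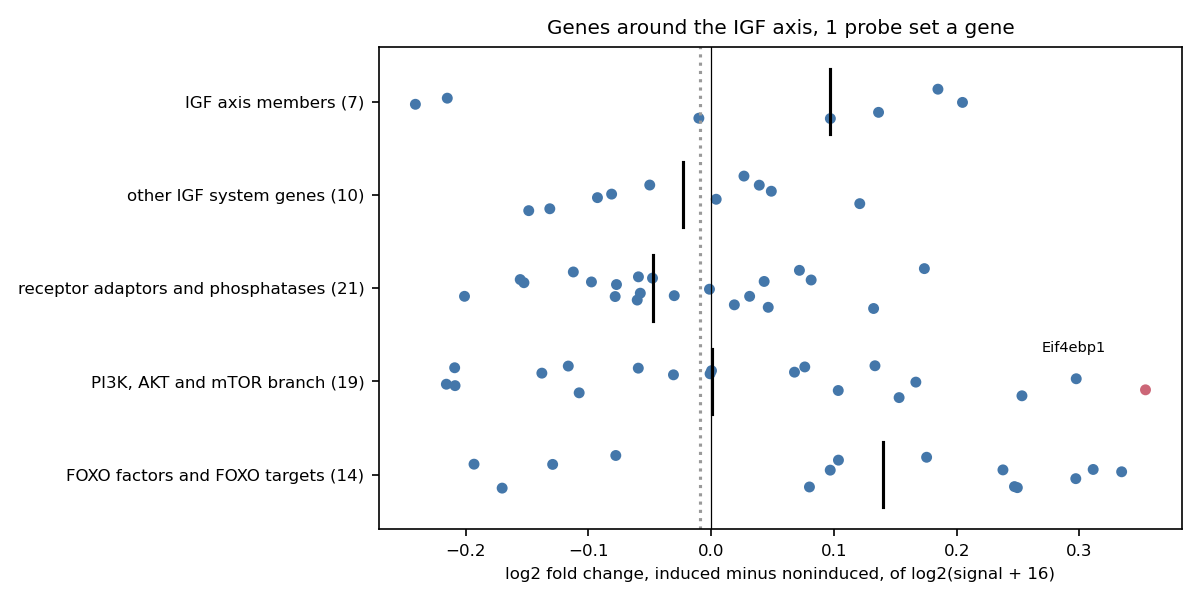
Log2 fold change (horizontal axis, induced minus noninduced) of the tested genes of each list, 1 point a gene with its brightest probe set; the number tested is in parentheses, vertical bars are list medians, the dotted line is the median of all 10757 tested genes, and vertical scatter within a list has no meaning. Eif4ebp1 is the single gene past the adjusted threshold (red), and the list medians run from -0.05 to 0.14.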

How the data were processed

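Total RNA of 6 C2C12 samples (3 noninduced, 3 induced) went onto 1 Affymetrix array each, of the Mouse 430 type per the file headers. For 45101 probe sets the authors deposited a linear signal (an intensity), for which the submitters' processing notes name GCOS 1.1.1; its settings are not stated in the sources used here. Each array had a mean of 150.0 once the outer 2% on both sides were trimmed, so values are relative to the whole array. The deposited instrument records (other text fields, per the file headers) gave the hybridisation times. Fluidics runs were inferred from these times and taken as separate where they lay more than 60 minutes apart.

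Groups came from the sample titles. The series calls its replicates biological. The 64 control probe sets were set aside. Gene names came from the platform annotation, checked through RefSeq identifiers of GRCm38.p6, with 0 symbols changed. Values were taken as log2(signal + 16), and the 22518 probe sets whose mean of these exceeded the median were tested in R 4.3.3 with limma 3.58.1, using lmFit and a trended eBayes, with Benjamini-Hochberg adjustment over all of them and a threshold of 0.05. Single values were also compared by exact two-sided permutation over the arrays. Array number limits the precision. The steps were tested on simulated data.

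All member probe sets are named. Of each other list, genes past the threshold, the 3 largest changes and the 2 highest signals are named, and, for the brightest member, the 3 probe sets most correlated with it. Akt2, Gabarapl1, Trim63 and Klf15 fall outside this rule and were added after their values were seen. Members and lists were chosen with earlier results of these data known.

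Alternatives tried were median centring or quantile scaling, omission of the filter or a stricter one (75th percentile), a pseudocount of 64 or 1, untrended or robust variances, a block for replicate number or fluidics run, only the first run, omission of single arrays, and averaging a gene's probe sets.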

Additional observations from a re-analysis of the deposited data

How the results depend on the processing

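In limma no tested IGF axis probe set passed the adjusted threshold under any of the 17 alternatives, nor any of the 6 member genes tested as an average of probe sets, with adjusted p between 0.185 and 0.999 for the probe sets. Signs were less stable. Of 229 probe set values under alternatives, 19 changed sign. Values with another filter, another variance moderation or the replicate block equal the main estimate by construction and could not change sign. The second run holds only arrays labelled induced, so the run block gives the same estimate as the first run alone. Sign changes there are counted under both settings. In that estimate Igf1r 1452982_at was at -0.0598, Igfbp2 at 0.0299, Igfbp4 1423757_x_at at 0.20 and Igfbp5 1422313_a_at at -0.0304. Igfbp2 was at 0.0833 after median centring, and Insr at -0.0325 as an average of its probe sets. Leaving out 1 array gave -0.13 to 0.12 for Igf1r 1426565_at, -0.0022 to 0.21 for Igf2r 1424111_at, -0.0471 to 0.047 for Igfbp2, -0.0932 to 0.16 and -0.11 to 0.27 for Igfbp4 1437405_a_at and 1421992_a_at, and -0.11 to 0.28 for Igfbp5 1422313_a_at. The cause was not tested.

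The 45 calls over all probe sets (27 higher, 18 lower) became 306 after median centring (294 higher, 12 lower), 1 with no filter, 103 with the filter at the 75th percentile, 73 with a pseudocount of 64, 76 with robust moderation, 0 without a variance trend (2818 at an unadjusted p under 0.05), 0 in the first run alone (1978) and 0 with the run as a block (1918), and 1 to 58 when 1 array was left out, in limma. The PI3K, AKT and mTOR list had 2 calls after median centring, and 0 with no filter, without a variance trend, with either block, within the first run and with averaged probe sets, and 0 to 1 when 1 array was left out. The FOXO list had 1 call, Bnip3, after median centring. Of 72 list medians under alternatives, 13 moved by more than the spread between replicates.

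With the replicate number as a block there were 7 calls. The numbers do not pair the arrays: deviations of same-numbered arrays correlated at 0.01, -0.06 and -0.0053, and 1 of 6 arrays correlated best with its own number.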

Other observations

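Of the 11 other IGF system genes below the signal filter, 2 had groups that did not overlap. The share was 20.3% of all tested probe sets, but those lie above the filter. No share was computed for probe sets below it, so the number has no like background here. These 2 genes were chosen after their values were seen. Igfbp3, a binding protein of the circulation, gave 3.09, 2.55 and 3.81 on noninduced arrays 1 to 3 and 18.3, 4.80 and 17.95 on the arrays labelled induced (limma adjusted p = 0.404 with no filter). Grb14, an inhibitor of the insulin receptor, gave 9.40, 12.3 and 15.2 against 2.08, 1.66 and 6.40 (limma adjusted p = 0.343 with no filter). Signals of this size lie where probe sets of one gene disagreed in sign among the members, as for Insr.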
